A study of Dirofilaria immitis with 5 samples.

Results

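The muscle miRNAs miR-1 and miR-133 were followed in the culture medium of Dirofilaria immitis, the filarial nematode of canine heartworm disease. Every row of the deposited small RNA table named miR-1 or miR-133 after its species prefix was taken, which gave 5 of 1228 rows, 4 for miR-1 and 1 for miR-133. Of these, 3 had 10 or more reads over the libraries, and the others had 1 and 5. Live whole worms had been cultured, RNA had been extracted from the concentrated medium, and small RNA libraries had been sequenced. The groups were microfilariae (the larvae that circulate in host blood), third-stage larvae (L3, the form a mosquito passes on), fourth-stage larvae (L4), adult females and adult males. The sources used here do not give the strain, the number and age of the worms, the medium or the time in culture. Each group had 1 library, so there was no spread between replicates, no test was made between groups, and every difference is one between libraries.

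miR-1 is among the most conserved of animal miRNAs and marks muscle in nematodes, insects and vertebrates. In Caenorhabditis elegans it acts in body-wall muscle, where it tunes the response to acetylcholine at the neuromuscular junction. In vertebrates miR-1 and miR-133 are made from shared transcripts in heart and skeletal muscle, with miR-1 favouring muscle differentiation and miR-133 the proliferation of muscle precursors. A miRNA recognises its targets mainly through its seed, bases 2 to 8 from the 5′ end.

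The sequences are shown because the libraries differed in which of these forms they held. They are given 5′ to 3′ as DNA letters, as the table writes them, with the seed in capitals. All 3 rows of the miR-1 3p arm, the strand that acts as the mature miRNA, share a seed and the first 20 letters, and differ only in how far and with which letters they extend at the 3′ end.
cel-miR-1-3p_R-1: tGGAATGTaaagaagtatgt
cbr-miR-1_R+2: tGGAATGTaaagaagtatgtaga
hco-miR-1_R+2_1ss22GT: tGGAATGTaaagaagtatgtattt
asu-miR-1-5p_R-1_1ss12AG: cGTACTTCtttgcatcgccat
asu-miR-133-3p_L-1R+1_1ss22AG: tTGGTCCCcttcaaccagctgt
The first is called the 20 nt row of miR-1 below, the second the 23 nt row, and the last the miR-133 row. If L-1 in the name of the miR-133 row means 1 base less at its start, its seed is shifted by 1 base from that of the named miRNA. Rows with the unshifted seed were not counted. Among all 1228 rows, the miR-1 seed stood in 4 and the seed of the miR-133 row, as listed, in 1. The seed of the 5p arm, the other strand of the hairpin, stood in 2. The additional rows were predicted candidates with 1 read each. PC-3p-716165_1 begins with the same 20 letters as the miR-1 3p rows and was read in L3, and PC-5p-993130_1 extends the 5p row by 1 base and was read in microfilariae.
PC-3p-716165_1: tGGAATGTaaagaagtatgtatc
PC-5p-993130_1: cGTACTTCtttgcatcgccatt

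The table also lists where some rows match the genome of the dog, a host of this worm. The 20 nt row of miR-1 and the miR-133 row each have 2 exact matches there, in the same 2 genome records and on the plus strand. In these records the miR-133 match begins 9436 and 3120 bases after the miR-1 match. The sources used here do not name the dog genome build. Within 20000 bases of each miR-1 match the table lists 3 matching rows in all, the third being the candidate PC-3p-716165_1. That candidate was listed there with 1 mismatch, T23C, counted from 1 at the 5′ end with the dog base first. From its listing the dog letters at positions 21 to 23 can be read, and the 23 nt row of miR-1 differs from both dog loci by T22G and T23A. The 23 nt row is not listed with a dog match. The first 23 of the 24 letters of hco-miR-1_R+2_1ss22GT equal those of the dog loci. No match is listed for it or for the 5p row, but both lie in the last block of the table, where none of the 1062 rows has one. By sequence, the reads of the 20 nt row and of miR-133 cannot be told apart from those of the dog. The 23 nt row differs from both dog loci only in its last 2 letters, and its origin was not tested.

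Depth differed widely. The table held 727018 reads of microfilariae, 376070 of females, 326187 of L4, 34448 of L3 and 32983 of males, or between 0.870% (L3) and 20.2% (microfilariae) of the mappable reads. A share below is a percentage of a library's table reads and a fold is a ratio of 2 shares. Brackets hold exact 95% binomial intervals, Clopper-Pearson for shares and conditional for folds, and they cover counting error alone, since amplified reads that carry no molecular barcode can be copies of one molecule. In bulk medium, fewer cells or worms releasing a miRNA and less release from each cannot be told apart.

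miR-1 in its 20 nt form was most abundant in the microfilarial and female media. This row had 4330 reads in microfilariae, 989 in females, 60 in L4, 20 in L3 and 0 in males. These are shares of 0.596% (0.578 to 0.614), 0.263% (0.247 to 0.280), 0.0184% (0.0140 to 0.0237) and 0.0581% (0.0355 to 0.0897), while 3 counts, the limit set for 0 reads, would be 0.00910% in males, where the exact upper bound is 0.0112%. By share the order was therefore microfilariae, females, L3, L4 and males, with no overlap between the intervals of neighbours down to L4. The row ranked 17th of 666 rows with reads in microfilariae, 26th of 897 in females, 27th of 132 in L3 and 30th of 232 in L4. Counted per 1000000 mappable reads it stood at 1204 in microfilariae, 319.9 in females, 9.34 in L4 and 5.05 in L3, which turns the order of the larval libraries.

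The 23 nt row of miR-1, the form that differs from the dog loci, ran in another order. It had 61 reads in microfilariae, 17 in females, 11 in males, 2 in L4 and 1 in L3. By share it was highest in males, at 0.0334% (0.0166 to 0.0597), followed by microfilariae at 0.00839% (0.00642 to 0.0108) and females at 0.00452% (0.00263 to 0.00724). The larval values of 0.00290% (0.0000735 to 0.0162) in L3 and 0.000613% (0.0000743 to 0.00221) in L4 rest on 1 and 2 reads. The male value lay above those of microfilariae, females and L4 without overlap of the intervals, while the L3 interval just missed it and took in those of microfilariae and females. Per 1000000 mappable reads the lead passed to microfilariae, at 17 against 5.50 in females and 3.34 in males.

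By share, miR-133 was most abundant in the larval media. Its row had 60 reads in L4, 14 in L3, 7 in microfilariae, 2 in females and 0 in males. The shares were 0.0406% (0.0222 to 0.0682) in L3, 0.0184% (0.0140 to 0.0237) in L4, 0.000963% (0.000387 to 0.00198) in microfilariae and 0.000532% (0.0000644 to 0.00192) in females, with a limit of 0.00910% in males. The intervals of L3 and L4 overlapped slightly, as did those of microfilariae and females, but the larval ones lay above the other two. The male limit lies above the microfilarial and female values, so that at the male depth such a level was not detectable.

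**Figure D1:**
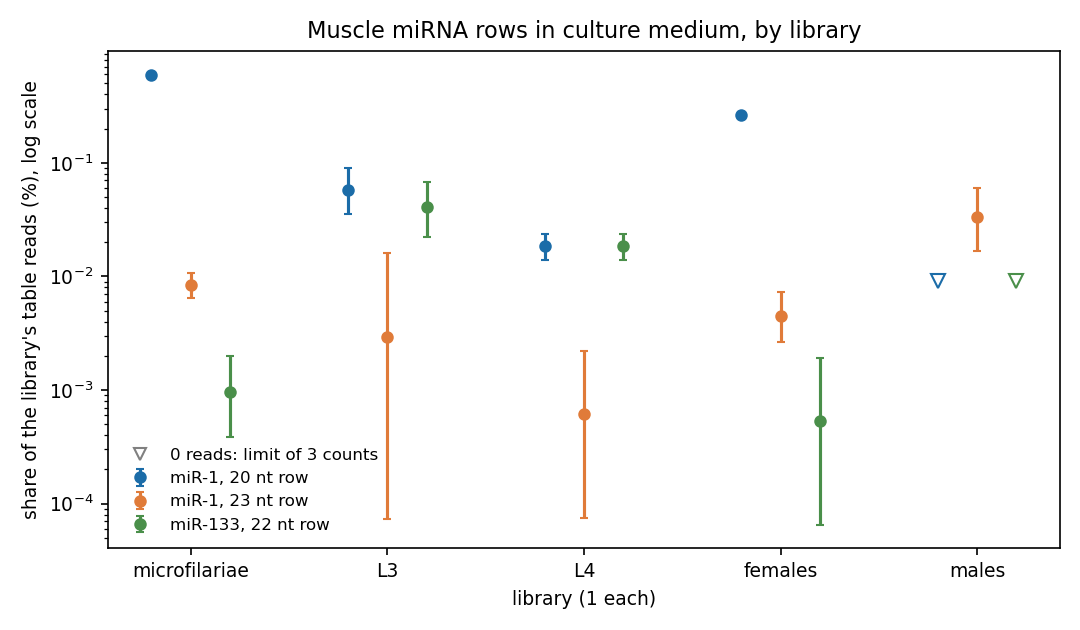
Share of each library's table reads (log scale, percent) for the 3 muscle miRNA rows with 10 or more reads, with exact 95% intervals; open triangles mark the limit of 3 counts where a row had 0 reads. The 20 nt row of miR-1 falls from 0.596% in microfilariae to below the limit of 0.00910% in males. The 23 nt row peaks by share in males at 0.0334% (per mappable read in microfilariae). By share miR-133 stands highest in L3 at 0.0406%, followed by L4 at 0.0184% (per mappable read it is highest in L4).

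The remaining members were barely detected. hco-miR-1_R+2_1ss22GT was deposited with 0.5 reads in microfilariae, rounded here to 1, and 0 elsewhere. The 5p row had 4 reads in microfilariae and 1 in females. With the candidate PC-5p-993130_1 added, the 5p arm made up 0.114% (0.0369 to 0.265) of the miR-1 reads of microfilariae and 0.0993% (0.00251 to 0.552) of those of females. It was therefore scarce beside the 3p arm in both libraries. In L4 its 0 of 62 reads allow up to 5.78%, and in L3 and males its 0 of 22 and 0 of 11 reads allow up to 15.4% and 28.5% (exact upper bounds).

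The form of miR-1 differed most between the male library and the others. This comparison is made within each library, so it does not depend on how libraries are scaled. Of the reads of the 20 nt and 23 nt rows together, the 23 nt row held 61 of 4391 in microfilariae (1.39%, 1.06 to 1.78), 17 of 1006 in females (1.69%, 0.987 to 2.69), 2 of 62 in L4 (3.23%, 0.393 to 11.2) and 1 of 21 in L3 (4.76%, 0.120 to 23.8). In males it held 11 of 11 (100%, with a lower bound of 71.5%). The first 4 intervals overlapped and the male interval lay above all of them. Put the other way, the other libraries held between 20 (L3) and 71.0 (microfilariae) reads of the 20 nt row per read of the 23 nt row, and males held 0 for 11.

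The sexes differed in opposite directions for these forms. By share, the 20 nt row was at least 28.9-fold higher in females than in males when the 0 male reads are set to 3 counts, with an exact lower limit of 23.5, and the 23 nt row was 7.38-fold (3.12 to 16.7) higher in males, so that both of the 2 members with 10 or more reads in either sex passed 2-fold, in opposite directions. Over all rows, 33.6% of those compared were at least 2-fold higher in females and 20% in males. These 47 and 28 of 140 rows became 127 and 8 per mappable read, and 33 and 41 without the most abundant row of either library. Per mappable read the 23 nt ratio of females to males was 1.65 (0.727 to 3.89), which includes equal levels, while the bound for the 20 nt row grew to 351-fold.

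Lengths of the table's reads were set beside this. Rows of 20 nt or less held 3.26% of the male table reads, within the range of the other libraries (0.922% in L4 to 10.1% in L3). Rows of 23 nt or more held 41.2% in males against 75.1% in females, 85.3% in microfilariae, 9.92% in L3 and 4.44% in L4. Before mapping, 43.8% of the adapter-containing male reads were under 18 nt, against 8.16% to 21.1% in the other libraries. Those over 25 nt made up 5.76% in males, against 22.5% in L4 to 58.9% in microfilariae. The part of these differences in the result was not tested. In the rest of the table, 16 other pairs of rows in which one sequence begins the other had 10 or more reads in each sex. The share of the longer row in these pairs, which can have a row in common, differed between males and females by -1.25 to 29.5 percentage points, against 98.3 for miR-1. The pair at 29.5 was bma-miR-2c_1ss20TC, of the invertebrate miR-2 family, with the candidate PC-3p-2685_459, and its longer row held 38.9% in males and 9.35% in females. The next largest difference was 3.77 points.

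The balance of miR-1 and miR-133 divided the larval libraries from those of microfilariae and females. It too was read within each library. For each miR-133 read there were 627 (304 to 1561) reads of the miR-1 3p rows in microfilariae and 503 (139 to 4159) in females, but 1.5 (0.727 to 3.19) in L3 and 1.03 (0.713 to 1.5) in L4. In males, 11 reads of miR-1 stood against 0 of miR-133, for which the exact lower limit is 2.51. miR-133 thus took 0.159% (0.0640 to 0.328) of the reads of these rows in microfilariae, 0.198% (0.0240 to 0.715) in females, 40.0% (23.9 to 57.9) in L3 and 49.2% (40.0 to 58.4) in L4. The larval intervals overlapped each other and lay far above the microfilarial and female ones, and the male interval (0% to 28.5%) took in both of the latter and overlapped that of L3.

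**Figure D2:**
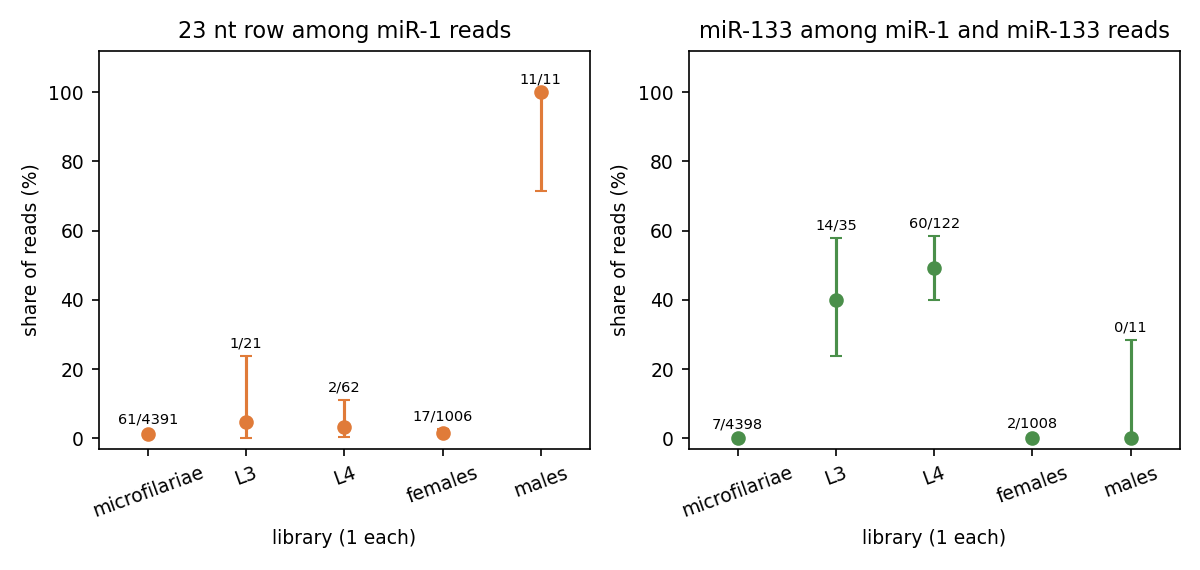
Left, percent of miR-1 3p reads that lay in the 23 nt row; right, percent of miR-1 and miR-133 reads that were miR-133, in each library, with exact 95% intervals and read counts. The 23 nt row holds 100% in males and 4.76% or less elsewhere, and miR-133 holds 40.0% in L3 and 49.2% in L4 against 0.159% in microfilariae, 0.198% in females and 0 of 11 reads in males, whose interval reaches 28.5% and overlaps that of L3.

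Microfilariae were then set against each other stage. The 20 nt row of miR-1 was 10.3-fold (6.63 to 16.8) higher in microfilariae than in L3, 32.4-fold (25.1 to 42.5) higher than in L4 and 2.26-fold (2.11 to 2.43) higher than in females, and at least 65.5-fold higher than in males with the male reads set to 3 counts (exact lower limit 53.2). The direction held under each of the 8 other scalings tried, although the excess over L3 shrank to 1.68-fold, that over L4 to 2.87-fold and that over females to 1.92-fold with the library size parameter of the authors' table. miR-133 went the other way, 42.2-fold (15.9 to 124) higher in L3 and 19.1-fold (8.72 to 49.5) higher in L4 than in microfilariae, and the point ratios kept this direction under each scaling. Per mappable read the ratio of microfilariae to L3 was 0.551 (0.188 to 1.46) for miR-133, which includes equal levels, and that to L4 was 0.208 (0.0804 to 0.456). The 23 nt row was 13.7-fold (3.63 to 116) higher in microfilariae than in L4 and 1.86-fold (1.07 to 3.39) higher than in females. Its 2.89-fold (0.5 to 116) excess over L3 included equal shares, and by share it was 3.97-fold (1.89 to 7.62) higher in males than in microfilariae, a direction that turned per mappable read.

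Counted by a call at 2-fold with 10 or more reads in either library, 3 of the 5 members could be compared between microfilariae and L3. Of these, 2 were higher in microfilariae, where 31.8% of all rows compared were, and 1 in L3, where 11.3% were. Among the 151 rows compared, the 48 higher in microfilariae and 17 in L3 became 139 and 8 when scaled to mappable reads. The authors' library size parameter gave 16 and 38. The member calls changed as well. Per mappable read 2 members were higher in microfilariae and 0 in L3, and with the library size parameter 0 and 2. TMM and median of ratios each gave 1 and 1. By share, the members again gave 2 and 1 against L4, beside 76.4% and 11.5% of all rows. The excess of miR-1 over L4 was thus by share common to most of the table. That background turned from 120 and 18 of 157 rows to 22 and 47 with the library size parameter, where the 20 nt row alone was still called higher in microfilariae and miR-133 higher in L4. Against females, 1 of 2 members was called, higher in microfilariae, beside 28.2% of all rows (49 of 174, with 74 higher in females, or 75 and 56 per mappable read). With the library size parameter no member reached 2-fold against females. Against males, 1 member was called in each direction, beside 17.2% of rows higher in microfilariae and 27.8% higher in males. Those 26 and 42 of 151 rows became 134 and 9 per mappable read, where both members were called higher in microfilariae.

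Between the larval libraries the members moved with the table. The 20 nt row of miR-1 was 3.16-fold (1.8 to 5.31) and miR-133 2.21-fold (1.14 to 4) higher in L3 than in L4. Both of 2 comparable members were thus called higher in L3, as were 50% of all rows compared, against 6.06% higher in L4. The 33 and 4 of 66 rows became 6 and 44 per mappable read. Per mappable read both turned, to ratios of L3 to L4 of 0.541 (0.309 to 0.910) for the 20 nt row and 0.378 (0.195 to 0.685) for miR-133. For the 23 nt row, 1 and 2 reads decided nothing, at 4.73-fold (0.0802 to 90.9).

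**Figure D3:**
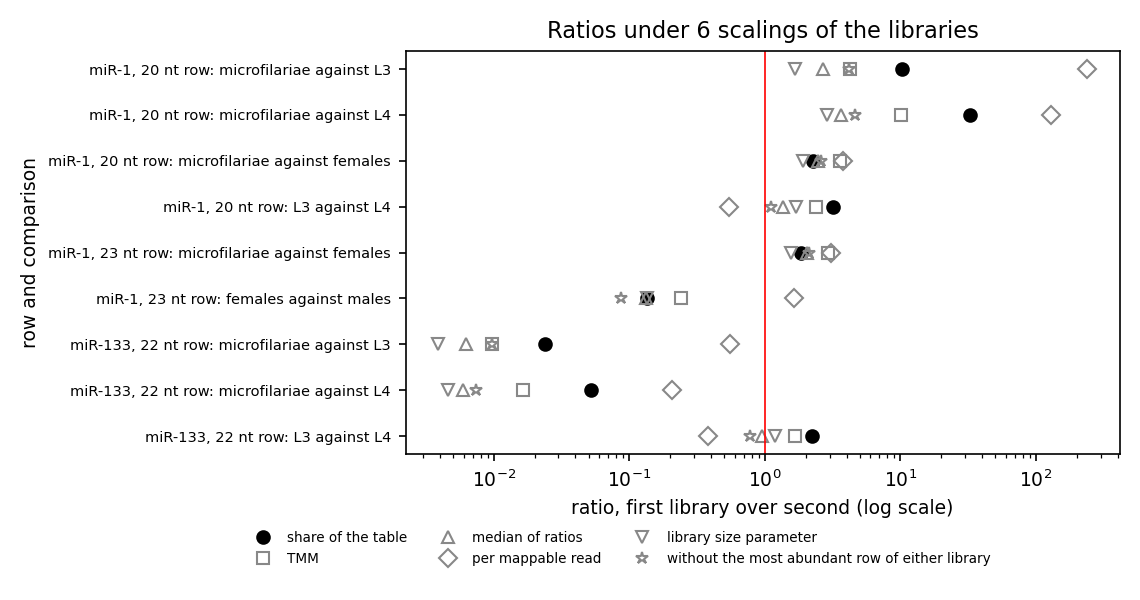
Ratio of the first to the second library (log scale) for 9 combinations of member and comparison, by share of the table (filled) and under 5 other scalings (open); the line marks equal levels. The point ratios of microfilariae to L3, L4 and females stay above 1 for the 20 nt row of miR-1 and those of microfilariae to L3 and L4 stay below 1 for miR-133, while the L3 to L4 ratios fall on both sides.

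As a sum, the 5 members held 0.606% (0.588 to 0.624) of the microfilarial, 0.268% (0.252 to 0.285) of the female, 0.102% (0.0708 to 0.141) of the L3, 0.0374% (0.0311 to 0.0447) of the L4 and 0.0334% (0.0166 to 0.0597) of the male reads. The sum hid different members. Of it, the 20 nt row made up 98.3% in microfilariae and 98.0% in females, 57.1% in L3 and 49.2% in L4, and 0 of 11 reads in males. Females exceeded males by 8.04-fold (4.48 to 16.2) in the sum. Without the rows that match the dog genome exactly, the sum was by share instead higher in males, with a female to male ratio of 0.144. That rests on few reads, namely 11 of the 23 nt row in males against 17 of it and 1 of the 5p row in females. This reduced sum was not compared per mappable read. On that scale the 23 nt row alone had a female to male ratio of 1.65 (0.727 to 3.89), which includes equal levels. Of the other lists of tissue miRNAs, those of gut and epidermis (miR-86, miR-57, miR-50 and miR-228) held between 0.749% in L3 and 6.48% in microfilariae. Those of nerve (miR-124, miR-7, miR-9 and miR-87) held between 0.0166% in L4 and 0.865% in L3. Those of the embryo (miR-35 to miR-42) held 5.15% in females and at most 0.561% elsewhere. Only 2 of the 8 embryo numbers were found, and bma-miR-36a_R+1_1ss19GA alone had 19034 of the 376070 female reads. No row bore the name of another muscle miRNA looked for (miR-206, miR-208, miR-499, miR-486 and miR-796) or of the blood, liver and vessel wall miRNAs of the dog. Every named row is named after a nematode miRNA, so names that only vertebrate miRNAs carry could not appear.

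The profile of each member over the 5 libraries was compared with that of every other row with 100 or more reads in all. A profile is a row's 5 shares divided by their sum, and the overlap of 2 profiles is 100% where they are the same. By share, the members themselves overlapped little, by 33.0% for the miR-1 rows. The 20 nt row and miR-133 overlapped by 10.6%, and the 23 nt row and miR-133 by 9.53%. Overlaps were not computed per mappable read. On that scale both miR-1 rows were highest in microfilariae, followed by females. Their ratios of microfilariae to females were 3.76 (20 nt row, 3.51 to 4.04) and 3.09 (23 nt row, 1.78 to 5.64). In males they still differed, with 0 reads of the 20 nt row and 11 of the 23 nt row. Most like the 20 nt row were asu-miR-86-5p (92.5%), the candidate PC-5p-717_1743 (90.5%), bma-miR-5845_L-1_1ss10CT (90.3%) and bma-miR-87b_R+2 (89.1%), out of 89 rows. asu-miR-86-5p had 2326 reads in microfilariae, 589 in females, 53 in L4, 12 in males and 10 in L3. It is not listed with a dog match. In males PC-5p-717_1743 had 3 reads, and bma-miR-5845_L-1_1ss10CT and bma-miR-87b_R+2 had 0, as the 20 nt row did.

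Most like the 23 nt row were bma-miR-2c_1ss20TC (92.5%) and the candidates PC-5p-6074_174 (92.1%), PC-3p-5368_204 (90.4%) and PC-5p-799_1592 (86.4%), all highest in males by share. bma-miR-2c_1ss20TC had 1867 reads in microfilariae, 824 in females, 305 in males, 66 in L4 and 3 in L3. The 23 nt row had 92 reads in all, so its profile is uncertain.

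Most like miR-133 were 3 let-7 rows, let-7 being the miRNA that times the larval to adult switch of C. elegans. They were prd-let-7-5p_1ss12GA (95.4%), asu-let-7-5p (88.9%) and cel-let-7-5p_R+1 (88.2%), followed by PC-3p-389_2939 (73.5%). prd-let-7-5p_1ss12GA had 282 reads in L4, 77 in L3, 9 in microfilariae, 1 in females and 0 in males, the same order as miR-133 with 60, 14, 7, 2 and 0. Each let-7 row also matches the dog genome exactly, as miR-133 does. These likenesses rest on 5 libraries, whose depth all rows share. The miR-133 row had only 83 reads in all, 14 of them in L3, so its profile is uncertain as well.

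**Figure D4:**
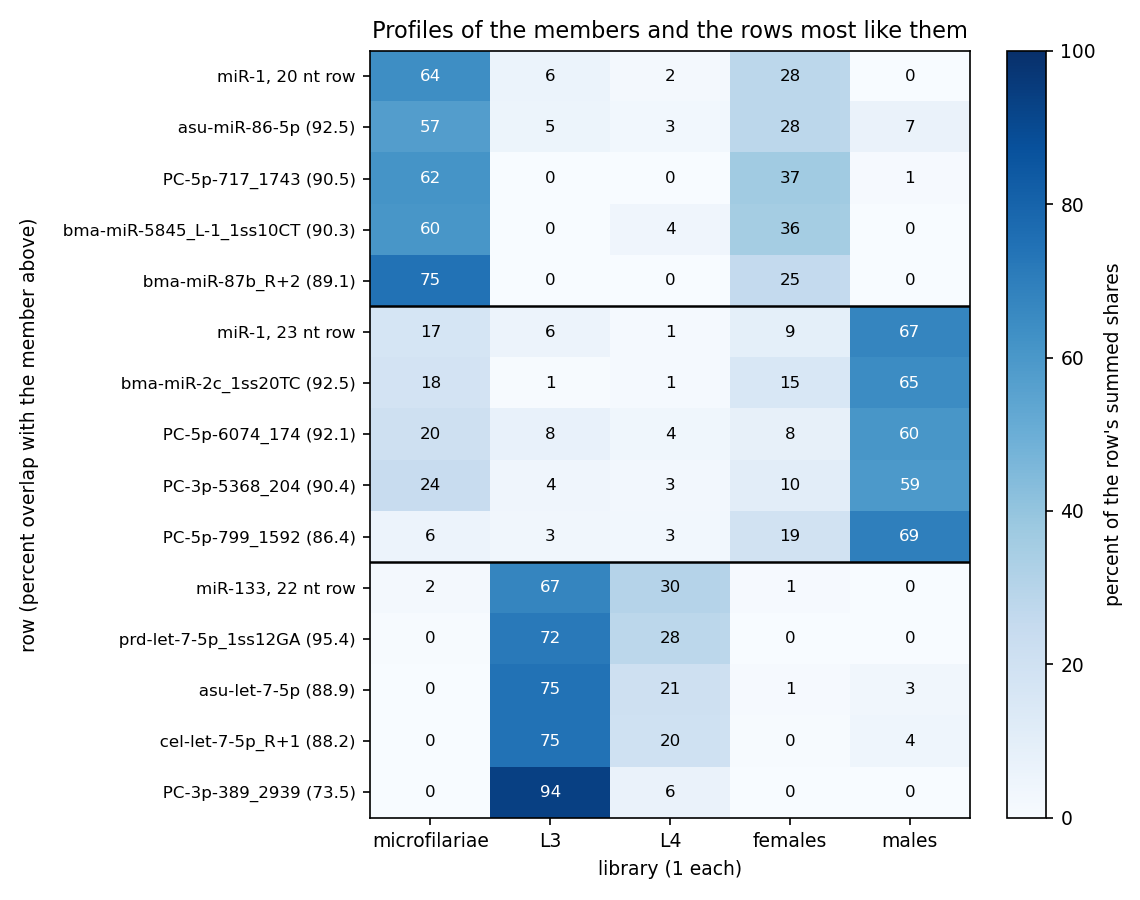
Percent of each row's summed shares that fell in each library, for the 3 members and, beneath each, the 4 rows most like it with their percent overlap. The 20 nt row of miR-1 groups with rows of microfilariae and females (63.7% and 28.1%), the 23 nt row with rows of males (67.0%), and miR-133 with the let-7 rows in L3 and L4 (67.1% and 30.4%). Profiles are by share. Per mappable read the 23 nt row was highest in microfilariae and miR-133 in L4.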

How the data were processed

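The deposited table gives, for each small RNA sequence and library, an estimated count of reads (some values are fractions) and a normalised signal, per the file headers. The signal, which the authors made by dividing each count by a library size parameter, was used only as an alternative scaling. Mappable reads of 18 to 25 nt were kept by the authors, per the file headers, and bcl2fastq 1.8.4 and Bowtie are named in the submitters' processing notes. How reads were shared between rows is not given in the sources used here. 1 line of the table was not analysed here.

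Counts were rounded to whole reads and divided by the column sum. Exact intervals (scipy 1.17.1) cover counting error only. Rows with 0 reads were given a limit of 3 counts. A call needed a 2-fold difference and 10 or more reads in either library. Alternatives included TMM (edgeR 4.0.16) and median-of-ratios scaling. The code was tested on simulated data. The rows with 10 or more reads were described in full, and the 4 rows with the most similar profile were named for each. Members and lists were chosen with earlier results of these data known. With 1 library in each of 5 groups, no count test across samples was run. Libraries of 32983 (males) and 34448 (L3) reads set the precision.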

Additional observations from a re-analysis of the deposited data

How the results depend on the processing

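No paired analysis was possible because each group had 1 library. In the ratios that follow, the first library named is divided by the second. For the sum of the members, microfilariae to L3 (5.96 by share) was 2.45 with TMM, 1.56 with median of ratios, 139 per mappable read, 0.977 with the library size parameter (a reversal), 2.43 without the most abundant row and 3.13 without exact dog matches. Microfilariae to L4 (16.2) was in the same order 5.05, 1.83, 64.5, 1.43 and 2.30, the last without the most abundant row. Microfilariae to females (2.26) was 3.54, 2.47, 3.75, 1.91, 2.57, 1.90 without exact dog matches (17 female reads of the 23 nt row and 1 of the 5p row) and 2.09 with named rows as total. Microfilariae to males (18.2) was 50.6 with TMM, 367 per mappable read and 0.272 without exact dog matches. Females to males (8.04) was 97.7 per mappable read and, by share and on few reads, 0.144 without exact dog matches. L3 to L4 (2.72) was 1.17 with median of ratios, 0.465 per mappable read, 1.47 with the parameter, 0.959 without the most abundant row and 4.73 without exact dog matches. All sums without exact dog matches rest on few reads in L3, L4 or males. Only the 23 nt row was left there, with 1 read in L3, 2 in L4 and 11 in males. The 4.73 is that row's own ratio (0.0802 to 90.9), which includes equal shares. For single rows, 96 of 140 values were classed as the same, 36 as moved and 8 as reversed. These classes do not always follow the intervals. The 23 nt ratio of L3 to L4 fell from 4.73 to 0.811 per mappable read and was classed as the same. The 23 nt row reversed for microfilariae to L3 (0.758 with median of ratios, 0.474 with the parameter), microfilariae to males (5.08 per mappable read) and females to males (1.65 per mappable read). L3 to L4 reversed for the 20 nt row (0.541 per mappable read) and for miR-133 (0.954 with median of ratios, 0.378 per mappable read, 0.780 without the most abundant row). The cause was not tested. The scalings shifted all rows alike, for microfilariae to L3 by between -2.61 and 4.54 on the log2 scale. The within-library shares stayed within their intervals. The 23 nt share in L3 was 9.09% with the other rows that start as miR-1, and the miR-133 share was 41.2% in L3 and 50% in L4 without the 23 nt row, an alternative chosen after seeing the data. Depth limits L3 and males most.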

Other observations

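The likeness of miR-133 to the let-7 rows led, after the values had been seen, to a count of all named rows with an exact match in the dog genome and 10 or more reads in all. There were 10 such rows, and 9 of them had their highest share in L3, the exception being the 20 nt row of miR-1, which was highest in microfilariae. These 10 include miR-133 and the 3 let-7 rows that prompted the count. The count holds by share only, since per mappable read 5 of the 10 were highest in L4, 4 in microfilariae, 1 in females and 0 in L3. Of the 5 candidates with an exact match and 10 or more reads, by share 4 were highest in males, 1 in females and 0 in L3. Of the 55 other named rows of that depth in the part of the table for which dog matches are listed, 6 were highest in L3 and 3 in L4. The larval libraries held a median of 86.9% of the summed shares of the 8 exact-match rows that are neither miR-1 nor miR-133, against 8.10% for the 55 others. This contrast too is by share and was not made per mappable read. In microfilariae, L3 and L4, hco-miR-9 had 255, 108 and 11 reads and bma-miR-124_R-2 had 192, 83 and 5. By contrast, asu-let-7-5p had 175, 1795 and 4684. The 8 rows stand for fewer miRNAs, since 3 are forms of let-7, 2 of miR-9 and 2 of miR-124. The remaining row, asu-miR-100a-5p_L+1R-3_1ss17AT, had 18 reads in L4, 9 in L3, 6 in microfilariae, 5 in females and 1 in males. All rows with an exact match, candidates included, held 6.71% (6.45 to 6.98) of the reads in L3, 6.32% (6.06 to 6.59) in males, 2.09% in females, 1.88% in L4 and 1.24% in microfilariae. Single rows made up much of the L3 and male values. In L3, asu-let-7-5p alone held 5.21%, and in males the candidate PC-5p-799_1592 had 1550 of 32983 reads. Whether any of these reads came from dog or other vertebrate RNA was not tested.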
